A study of Mus musculus with 2 samples.

Results

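The miR-7 family of the mouse consists of 3 miRNA genes, Mir7b, Mir7-1 (also Mir7a-1) and Mir7-2 (also Mir7a-2), which were taken by gene symbol from 2202 annotated miRNA genes. All 3 had at least 10 counts in both libraries, as had 339 genes in all. Small RNA libraries were made from adrenal glands of female B6CASTF1/J mice, the first hybrid generation between the C57BL/6J and CAST/EiJ strains, aged 18 to 20 months. The input was total RNA. The labels give 1 group of 2 biological replicates, separate tissue samples that carry an identical donor entry. Nothing else says how they are related, so the SD over the 2 is the spread between these samples, which may be technical. No second tissue, age, sex or treatment was analysed here, and the values describe levels in the gland and the difference between its 2 libraries. The tables hold miRNA genes only, so the labelled tissue could not be checked against markers of cortex or medulla among messenger RNAs.

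A miRNA is cut from a hairpin precursor and guides the Argonaute protein to messenger RNAs that pair with its seed, bases 2 to 8 of the mature strand. miR-7 is conserved across bilaterian animals and is best known from neuroendocrine cells, among them those of the pituitary, the hypothalamus and the pancreatic islets. In the islets it restrains growth signalling and hormone secretion. In the brain it is tied to the circular RNA Cdr1as, which carries many miR-7 sites, and to the long noncoding RNA Cyrano, which directs its degradation. The adrenal gland joins a steroid-producing cortex to a medulla of neuroendocrine chromaffin cells.

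The mature sequences are shown because over their common length a single base separates the 5p arm of Mir7b from those of Mir7-1 and Mir7-2, which are identical to each other. They are from RefSeq on GRCm38.p6, in which all 3 genes were found at the positions of the count tables' annotation, and capitals mark the seed.
mmu-miR-7b-5p: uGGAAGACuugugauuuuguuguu
mmu-miR-7a-5p: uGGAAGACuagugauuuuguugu
mmu-miR-7b-3p: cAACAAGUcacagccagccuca
mmu-miR-7a-1-3p: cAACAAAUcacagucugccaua
mmu-miR-7a-2-3p: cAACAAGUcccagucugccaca

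Counted from 1 at the 5′ end, miR-7a-5p and miR-7b-5p differ by A10U, outside the seed, and miR-7b-5p is listed with 24 bases and miR-7a-5p with 23. Of 1738 mature entries in the RefSeq table, 3 carry this seed, those of the 3 miR-7 genes. The 3p arms, which are the strand opposite the guide, are distinct for each gene. Those of Mir7-1 and Mir7-2 differ by A7G, A10C and U21C, and those of Mir7-2 and Mir7b by C10A, U14C, U16A and A20U. In 141767 annotated transcripts, miR-7a-5p was found in both Mir7-1 and Mir7-2, and each of the other mature sequences was found in its own gene only.

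The hairpins show how far the identity of Mir7-1 and Mir7-2 extends, with capitals marking both mature arms.
Mir7b hairpin: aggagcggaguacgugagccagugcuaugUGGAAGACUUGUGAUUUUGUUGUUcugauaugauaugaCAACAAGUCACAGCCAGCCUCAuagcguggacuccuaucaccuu
Mir7-1 hairpin: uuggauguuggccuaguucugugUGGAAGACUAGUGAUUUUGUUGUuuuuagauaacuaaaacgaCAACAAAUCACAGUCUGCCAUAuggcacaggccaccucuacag
Mir7-2 hairpin: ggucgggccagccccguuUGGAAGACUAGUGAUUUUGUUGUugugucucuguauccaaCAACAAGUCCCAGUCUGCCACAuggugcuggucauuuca

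The longest run common to Mir7-1 and Mir7-2 is 24 bases, which is the whole of miR-7a-5p and the base after it. Mir7b shares at most 14 bases in a row with either. Over the aligned hairpins, 68.8% of columns were identical between Mir7-1 and Mir7-2, 66.9% between Mir7-1 and Mir7b, and 64.3% between Mir7-2 and Mir7b. Of the 22-base windows, 3 of 87 in Mir7-1 and 3 of 76 in Mir7-2 occurred in the other hairpin, whereas 0 of 90 in Mir7b occurred in any other miRNA hairpin of the RefSeq table. A full-length read of miR-7a-5p therefore matches both loci, and the deposited tables hold reads that align to several places in a class of their own, outside the gene counts. Reads counted at Mir7-1 and Mir7-2 are what remained after that exclusion. How many mismatches the alignment allowed is not given in the sources used here, so it could not be settled whether the counts of Mir7b include some reads of miR-7a-5p, which differs from miR-7b-5p by the base named above.

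**Figure D1:**
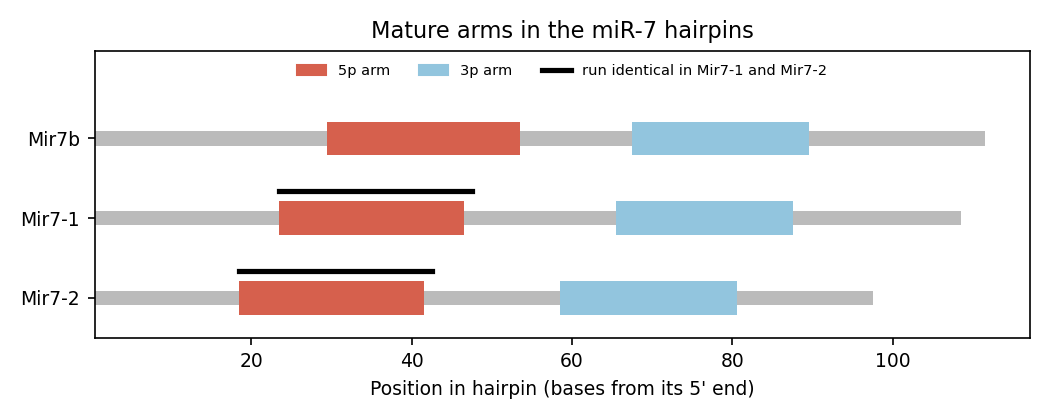
Mature arms in the hairpins of the 3 miR-7 genes, by position in bases from the 5′ end of each hairpin; grey bars are hairpins, red and blue boxes the 5p and 3p arms, and black lines the run identical in Mir7-1 and Mir7-2. The run covers the 5p arm at bases 24 to 47 of Mir7-1 and 19 to 42 of Mir7-2, and neither 3p arm lies in it.

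The 3 genes lie on separate chromosomes (mm10, GENCODE M21, 1-based), with no other miRNA gene within 50 kb of any. Mir7b (ENSMUSG00000065491.1) is at chr17:56242988-56243098 on the plus strand, in no other annotated gene, 182 bp past the end of the noncoding gene AC026385.1 on the same strand. Mir7-1 (ENSMUSG00000065434.1) is at chr13:58392779-58392886 on the minus strand, in an intron of Hnrnpk, which encodes an abundant RNA-binding protein. Mir7-2 (ENSMUSG00000065609.1) is at chr7:78888277-78888373 on the plus strand, also in no other annotated gene, 7480 bp before Aen, a nuclease gene.

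Own-strand gene counts totalled 2590051 in replicate 1 and 2291030 in replicate 2, and levels are counts per 1000000 of these totals (CPM). A mature miRNA is about as long as a read, so CPM were not divided by gene length. Mir7b had 8648 counts in replicate 1, or 3339 CPM (Wilson 95% interval 3269 to 3410), and 5355 counts in replicate 2, or 2337 CPM (2276 to 2401). Mir7-1 had 654 counts, or 253 CPM (234 to 273), in replicate 1 and 382 counts, or 167 CPM (151 to 184), in replicate 2. Mir7-2 had 187 counts, or 72.2 CPM (62.6 to 83.3), in replicate 1 and 99 counts, or 43.2 CPM (35.5 to 52.6), in replicate 2. Each gene was higher in replicate 1, with intervals that did not overlap, and the order of the 3 genes was the same in both libraries. PCR copies of a molecule are counted again, so the intervals hold counting error alone. No opposite-strand read was counted at any of the 3 genes.

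**Figure D2:**
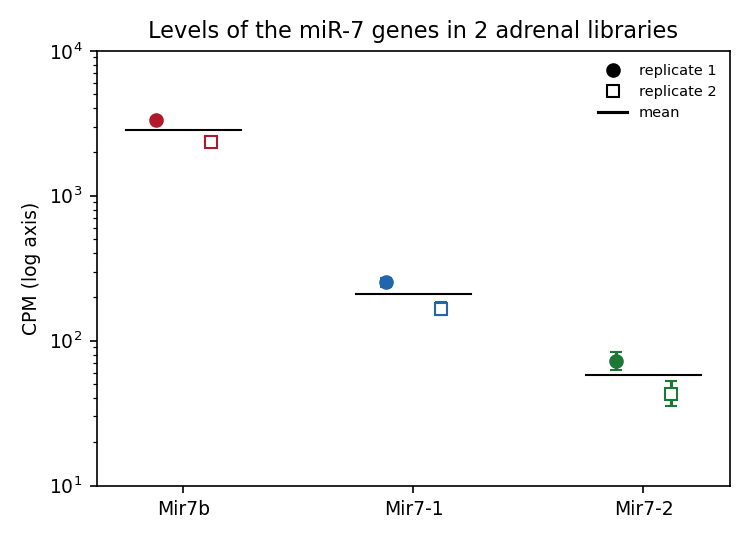
CPM of the 3 miR-7 genes on a log axis, with filled circles for replicate 1, open squares for replicate 2, Wilson 95% intervals as bars and the mean as a line. Mir7b at 2838 CPM, Mir7-1 at 209.6 CPM and Mir7-2 at 57.7 CPM on average do not overlap with each other in either library.

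Mir7b was the predominant miR-7 gene among the counted reads. It averaged 2838 ± 708 CPM (SD, n = 2), against 209.6 ± 60.6 CPM for Mir7-1 and 57.7 ± 20.5 CPM for Mir7-2 (SD, n = 2 each). These means placed Mir7b 46th, Mir7-1 150th and Mir7-2 213th of the 339 detected miRNAs, whose median was 134 CPM. In replicate 1 Mir7b ranked 40 and in replicate 2 it ranked 52 of all genes. Mir7-1 ranked 140 and 154, and Mir7-2 ranked 203 and 227, in replicates 1 and 2. In bulk tissue, fewer cells of a type and less RNA per cell cannot be told apart.

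Together the 3 genes held 0.366% of counts in replicate 1 and 0.255% in replicate 2, a summed level of 3105 ± 789 CPM (SD, n = 2). Reads that align to several places are outside this sum, so full-length miR-7a-5p reads may be missing from it. Mir7b supplied 91.1% of the family's 9489 counts in replicate 1, with a Wilson 95% interval of 90.5 to 91.7, and 91.8% of its 5836 counts in replicate 2, with an interval of 91.0 to 92.4. The mean was 91.4% ± 0.439 (SD, n = 2). Mir7-1 supplied 6.89% (6.40 to 7.42) and 6.55% (5.94 to 7.21), and Mir7-2 supplied 1.97% (1.71 to 2.27) and 1.70% (1.40 to 2.06), in replicates 1 and 2. The intervals of the 2 libraries overlapped for all 3 shares, although the summed level differed between the libraries. Because reads of miR-7a-5p match both Mir7-1 and Mir7-2, and the Mir7b counts may include miR-7a-5p reads, these shares describe counted reads and do not measure how much miR-7b the gland holds relative to miR-7a.

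The counts of Mir7-1 and Mir7-2 kept a similar proportion in the 2 libraries. Mir7-1 had 3.50 counts for each count of Mir7-2 in replicate 1, with a Wilson 95% interval of 2.97 to 4.11, and 3.86 in replicate 2, with an interval of 3.09 to 4.81. Mir7b had 13.2 counts for each of Mir7-1 in replicate 1 and 14.0 in replicate 2, and 46.2 and 54.1 for each of Mir7-2. The hairpin counts do not resolve the arms, so the 3p arms, which differ between all 3 genes, were not quantified separately.

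Reads that align to several places numbered 0.910 for each counted read in replicate 1 and 0.855 in replicate 2, and the part of them that came from miR-7a-5p was not measured. Other loci with a common mature sequence show where the pair stands. By the RefSeq sequences, 97 loci share a mature sequence with another locus, 94 were in the count tables by symbol, and 44 were detected, with a median of 58.0 CPM. The 262 detected loci whose mature sequences are all single-locus had a median of 157 CPM, and 33 detected genes had no entry by symbol. Mir7-1 ranked 13 and Mir7-2 ranked 23 of the 44, and Mir7b belongs to the single-locus class.

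Among these sets the highest summed means were those of Mirlet7f-2 and Mirlet7f-1 at 3871 CPM, of Mirlet7c-2, Mirlet7c-1 and Mirlet7a-1 at 2963 CPM, and of Mir92-1 and Mir92-2 at 1044 CPM, against 267 CPM for Mir7-1 and Mir7-2. Loci were joined through any shared mature arm, so the loci of a set larger than a pair need not all share the same sequence. In 18 pairs both loci were detected. The count ratio of the pair moved between the libraries by a median of 0.49 on the log2 scale without regard to sign, and by 0.14 in the same sense for Mir7-1 over Mir7-2. Counting Mir7-1 and Mir7-2, 4 of the 18 pairs moved by no more than this. In 7 of the 18 pairs, with Mir7-1 and Mir7-2 among them, the mean locus ratio was at least as large as that of Mir7-1 over Mir7-2.

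**Figure D3:**
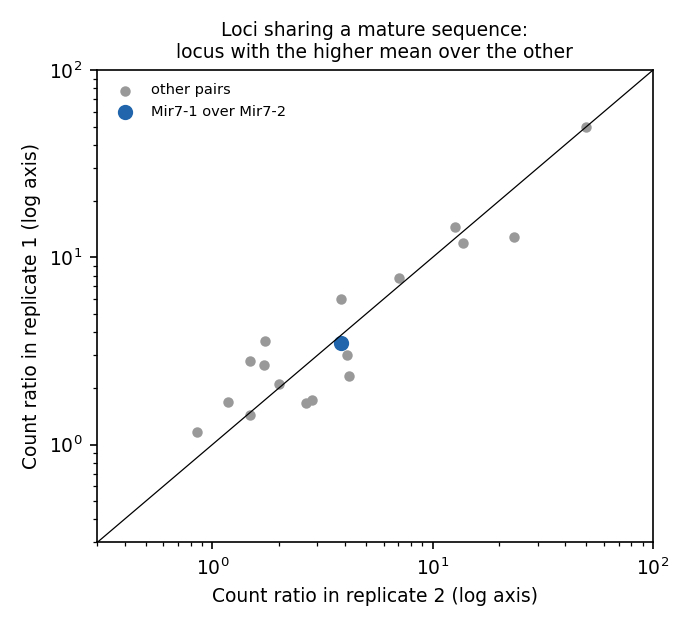
Count ratio within 18 pairs of loci that share a mature sequence, the locus with the higher mean over the other, in replicate 1 (vertical) against replicate 2 (horizontal), both on log axes with the line of equality. The pair of Mir7-1 and Mir7-2, at 3.50 and 3.86, lies close to the line.

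Between the libraries, all 3 miR-7 genes were higher in replicate 1. Mir7b had a log2 ratio, replicate 1 over replicate 2, of 0.48 (95% interval 0.43 to 0.53), which is 1.39-fold, with an adjusted p of 1.93e-81 in the exact conditional binomial test. Mir7-1 had a log2 ratio of 0.56 (0.38 to 0.75), 1.47-fold, with an adjusted p of 2.52e-09 in the same exact test. Mir7-2 had a log2 ratio of 0.70 (0.34 to 1.07), 1.62-fold, with an adjusted p of 1.48e-04 in the same exact test. The 3 intervals overlapped. Adjustment was by the Benjamini-Hochberg method over the 367 miRNAs whose counts in both libraries summed to 20 or more. The test compares the reads of these 2 libraries, has counting error as its only spread and has no replicate check.

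Of the 367 tested miRNAs, 62.7% passed the same exact test in either direction, 32.4% of the 367 higher in replicate 1 and 30.2% higher in replicate 2, so passing it was common among miRNAs with such counts. With no minimum count, 228 of 724 passed, and 16.4% of the 724 were higher in replicate 1. An absolute log2 ratio at least as large as the member's own was found for 180 of the 367 (49.0%) with Mir7b, 159 (43.3%) with Mir7-1 and 123 (33.5%) with Mir7-2, each count including the gene itself. The median absolute log2 ratio of tested miRNAs was 0.46. Among the 34 other tested miRNAs with a mean level within 2-fold of Mir7b, 33 passed the exact test, 11 of them higher in replicate 1 and 22 higher in replicate 2, and 15 had an absolute ratio at least as large. Around Mir7-1, 26 of 66 miRNAs passed the exact test as higher in replicate 1 and 17 as higher in replicate 2, and 22 had an absolute ratio at least as large. Around Mir7-2, 25 of 69 passed it as higher in replicate 1 and 18 as higher in replicate 2, and 29 had an absolute ratio at least as large. The differences of the miR-7 genes thus exceeded counting error and were of a size common among miRNAs of these libraries.

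**Figure D4:**
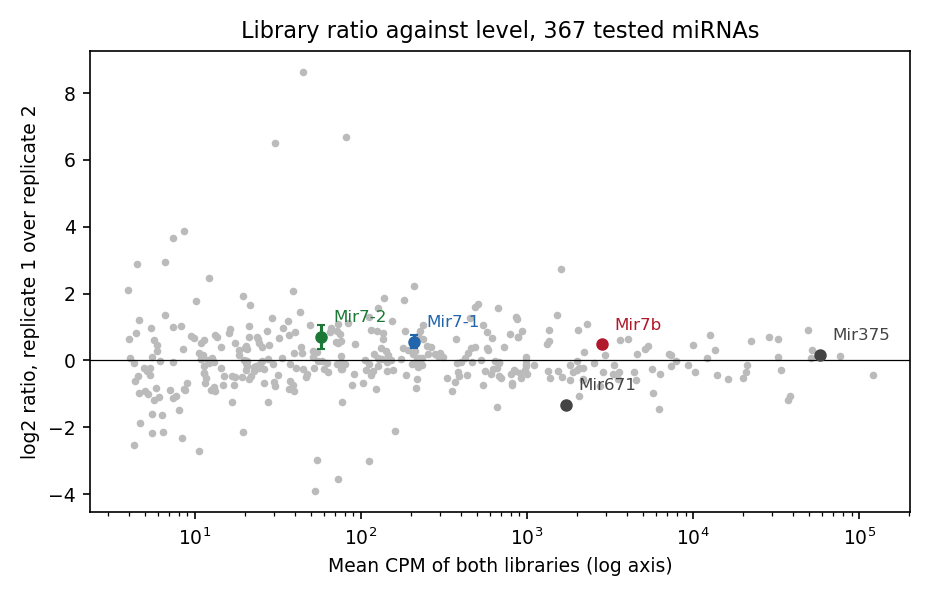
Log2 ratio, replicate 1 over replicate 2, against mean CPM on a log axis for the 367 tested miRNAs in grey, with the miR-7 genes in colour, Mir375 and Mir671 in dark grey and exact 95% intervals as bars. The 3 miR-7 genes lie between 0.48 and 0.70, inside the cloud of other miRNAs, and Mir671 lies below them at -1.33.

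Mir671 was set beside the family for its tie to Cdr1as, and a list of other endocrine miRNAs for the cell types they mark. Mir671 encodes the miRNA that directs cleavage of Cdr1as, the circular RNA that binds miR-7. It had 2584 counts, or 998 CPM, in replicate 1 and 5592 counts, or 2441 CPM, in replicate 2, a mean of 1719 ± 1020.5 CPM (SD, n = 2). Its log2 ratio was -1.33 (95% interval -1.40 to -1.26) and passed the exact test in the direction opposite to the miR-7 genes. Of the 367 tested miRNAs, 30.2% were higher in replicate 2, and 69 had an absolute log2 ratio of at least 1. Cdr1as is not among the measured genes, and hairpin counts do not resolve the arms of Mir671. A link between Mir671 and the miR-7 levels was not tested.

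The endocrine list held Mir375, an islet and neuroendocrine miRNA, the sensory and endocrine cluster of Mir183, Mir96 and Mir182, and Mir184. Mir375 had 62443 CPM in replicate 1 and 54040 CPM in replicate 2, a mean of 58242 ± 5942 CPM (SD, n = 2) and a log2 ratio of 0.17 (0.16 to 0.18). Mir182 had 828 and 616 CPM and Mir183 had 563 and 413 CPM in replicates 1 and 2. Mir184 had 27.4 and 36.2 CPM and Mir96 had 29.0 and 19.6 CPM. Of the 5 genes, Mir375, Mir182 and Mir183 were higher in replicate 1 in the exact test, 0 were higher in replicate 2, and Mir184 and Mir96 did not pass, with adjusted p of 0.0944 and 0.0836 in the same exact test. The share of all tested miRNAs that passed in either direction was 62.7%, and 32.4% were higher in replicate 1. The median log2 ratio of the list was 0.39, the value of Mir182, against -0.02 over all tested miRNAs. Mir182, Mir183 and Mir96 are neighbours in the same cluster, so the 5 genes are not independent. Outside that cluster, Mir375 was at 0.17 and Mir184 at -0.44.

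The neuronal list summed to 3122 CPM in replicate 1 and 1594 CPM in replicate 2, over 18 measured of 19 listed genes, 11 of them detected. Mir132, which answers to activity and hormone signals, led it with 2215 and 833 CPM, followed by Mir137 with 478 and 399 CPM and Mir129-2 with 156 and 135 CPM. Of the 11 tested, 4 were higher in replicate 1, 1 was higher in replicate 2 and 6 did not pass, with a median log2 ratio of 0.09. Among the 4 were Mir132 and Mir212, at log2 ratios of 1.37 and 1.44. They are neighbours on chromosome 11, so the 4 are not independent. Over all tested miRNAs 32.4% were higher in replicate 1 and 30.2% higher in replicate 2, so 4 of 11 is near the general share. The defining neuronal genes Mir124a-1, Mir124a-2, Mir124a-3 and Mir9-2 had 0 counts in both libraries, which allows up to 1.16 CPM in replicate 1 and 1.31 CPM in replicate 2. Mir124 and Mir9 are encoded at several loci, so their reads can fall in the class that aligns to several places, as those of miR-7a-5p can.

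The sums of several marker lists of other tissues and cell types differed between the libraries. Over all 367 tested miRNAs, 32.4% passed the exact test as higher in replicate 1 and 30.2% as higher in replicate 2. The striated muscle list, led by Mir206, summed to 598 CPM in replicate 1 and 81.2 CPM in replicate 2, over 9 measured genes of which 4 were at 0 in both. All 4 tested members were higher in replicate 1, with 737 and 182 counts for Mir206, 420 and 3 for Mir499, 231 and 0 for Mir208a, and 157 and 1 for Mir208b. Mir499, Mir208a and Mir208b are encoded in myosin genes of heart and slow muscle. Mir1a-1, Mir133a-1 and Mir133a-2 were among the muscle genes at 0. Mir1a and Mir133a have more than 1 locus each, so their reads can fall in the class that aligns to several places, outside the muscle sum. The endothelial Mir126a had 64752 and 33412 CPM, and the erythroid list had 810 and 430.4 CPM. Of its 2 genes, Mir451a had 740 and 349 CPM and was higher in replicate 1, while Mir486 had 70.7 and 81.6 CPM and did not pass the exact test. The leukocyte list, led by Mir150, had 1390 and 1353 CPM, and of its 4 genes Mir155 was higher in replicate 1, Mir223 was higher in replicate 2 and 2 did not pass. The muscle, endothelial and erythroid sums, the last through Mir451a, were higher in replicate 1, as were the miR-7 genes, and their part in the miR-7 difference was not tested. The pancreatic acinar list had 1.93 CPM in replicate 1, from 5 counts led by Mir217, and 0 counts in replicate 2. Acinar cells surround the islets, a known site of miR-7, and whether pancreatic tissue contributed to the miR-7 counts was not tested.

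By the distance of log2(CPM + 1) over the 2 libraries, the 5 detected miRNAs most like Mir7b were Mir455, Mir324, Mirlet7f-2, Mir130a and Mir382, at distances of 0.25, 0.44, 0.48, 0.53 and 0.57. Mir455 averaged 2947 ± 286 CPM and Mir324 averaged 2536 ± 61.5 CPM. Mirlet7f-2 averaged 3608 ± 1106 CPM, Mir130a 2190 ± 313 CPM and Mir382 3335 ± 183 CPM (SD, n = 2 for all 5). Mir455 had a log2 ratio of 0.16, Mirlet7f-2 of 0.60 and Mir130a of 0.26, higher in replicate 1 as Mir7b was. Mir324 at -0.09 and Mir382 at -0.15 were higher in replicate 2 in the exact test. Over all tested miRNAs, 32.4% were higher in replicate 1 and 30.2% higher in replicate 2. With 2 libraries the measure is mainly one of similar level.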

How the data were processed

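Per the labels, small RNA libraries came from adrenal total RNA, in 1 group of 2 replicates. The deposited tables hold raw read counts per miRNA gene in 3 columns, read from their values as strand ignored, own strand and opposite strand. Per the deposited notes, the build was mm10 with GENCODE M21. The aligner is not given in the sources used here, nor are the counting program and adapter trimming. The build represents C57BL/6J, and the effect of CAST/EiJ alleles on the counts was not tested. The first 4 rows of each table name no gene and entered neither library sizes nor tests. They held 73.6% and 67.2% of reads in replicates 1 and 2.

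CPM, Wilson intervals and a two-sided exact conditional binomial test with Benjamini-Hochberg adjustment were computed in Python 3.11.15 with scipy 1.17.1 and statsmodels 0.14.6. Library sizes were scaled by edgeR 4.0.16 TMM factors (1.01 and 0.987). DESeq2 1.42.0 gave alternative size factors. Ratios used a prior count of 0.5. The test was checked on simulated data with counting error only, so that check does not cover spread between samples. A count of 0 was taken to allow 3 counts. Hairpins were aligned globally with Biopython 1.88. Apart from the miR-7 genes, the named genes were the 5 nearest to Mir7b, all endocrine and circuit genes, the 3 highest neuronal genes, the leading gene of each other list, and the 3 highest sets of loci with a common mature sequence. Added after their values were seen were the 4 neuronal genes at 0, Mir212, Mir499, Mir208a, Mir208b, Mir1a-1, Mir133a-1, Mir133a-2, Mir486, Mir155 and Mir223. The members and lists were chosen with earlier results of these data known.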

Additional observations from a re-analysis of the deposited data

Results flagged for a closer look

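Reads that align to several places made up 24.0% of all reads in replicate 1 and 28.0% in replicate 2. They lie outside the gene counts and were picked out as a signal in data that no level above uses. Full-length miR-7a-5p reads match Mir7-1 and Mir7-2 and can be among them, and their number was not measured.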

How the results depend on the processing

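The 3 library ratios kept their direction and passed the exact test under DESeq2 size factors, total counts, no minimum count and strand ignored. The counts of the 3 genes were the same with strand ignored, so that setting changed library sizes and the adjustment. No minimum count changed the adjustment alone. A prior count of 5 enters the ratio and not the test, and kept the direction. The log2 ratio ranged from 0.48 to 0.51 for Mir7b (adjusted p up to 3.81e-81), from 0.55 to 0.60 for Mir7-1 (up to 4.97e-09) and from 0.67 to 0.74 for Mir7-2 (up to 2.91e-04, exact test). All these settings scale by counts in miRNA genes. Ratios per all reads were not tested, and unmapped reads made up 40.6% of all reads in replicate 1 and 29.8% in replicate 2. Per 1000000 of all reads, a larger denominator by construction, the mean was 824 ± 82.1 CPM for Mir7b and 901 ± 94.1 CPM summed (SD, n = 2). Mir7-1 averaged 60.7 ± 8.53 CPM and Mir7-2 16.6 ± 3.47 CPM on this scale (SD, n = 2). Relative to their means, these SDs were smaller than those per counts in miRNA genes. With strand ignored the means were 3287 CPM for Mir7b, 243 for Mir7-1, 67.0 for Mir7-2 and 3597 summed. These came from the same counts over smaller totals and lay within 1 SD of the means given above for own-strand counts. A single library gave 2337 to 3339 CPM for Mir7b, 167 to 253 for Mir7-1, 43.2 to 72.2 for Mir7-2 and 2547 to 3664 summed, and 91.1% to 91.8% for the Mir7b share. The count of differing miRNAs was 211 to 230, the 228 with no minimum count being of 724 tested against 367. No paired analysis was possible because there was 1 group. Depth limits Mir7-2 most, with 99 counts in replicate 2.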
